A study of Arabidopsis thaliana with 6 samples.

Results

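In leaves sprayed with the detergent Tween 20, 50 probe sets stood at least 2-fold above water in experiments IA (1 h) and II (2.5 h) but below 1.5-fold in experiment IB (1 h). They were chosen by these values from 22746 probe sets that are not controls. Signals below 0.1 were set to 0.1 first. The rule asked besides that the brighter signal of each of the 3 pairs reach the 40th percentile of its array, which 13310 probe sets did. Of these, 52 met the rule (0.391%), and 2 of the 52, UGT73B4 and XTH18, were left out by name. All 3 folds of every member were thus used to choose it, and the folds below are descriptions with no test.

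The samples were leaves of 28-day-old Arabidopsis thaliana plants of ecotype Col-0, grown in sterile jars with 33 plants per experiment. The groups were Tween 20 at 1.6 mM for 1 h (2 arrays, IA and IB), water for 1 h (2 arrays, IA and IB), Tween 20 at 1.6 mM for 2.5 h (1 array, II) and water for 2.5 h (1 array, II). Each array held the pooled RNA of 3 extracts, so the spread between extracts is not seen. In whole leaves, fewer cells of a type and less RNA per cell cannot be told apart. IA and IB carry the same collection time in their titles, while the protocol text of the IA samples names 2.5 h, as does that of II, and a pattern shared by IA and II therefore cannot be assigned to a time. The protocol text also names water as the spray for all 6 arrays, and the groups were therefore taken from sample titles and from the design text.

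Tween 20 is a non-ionic surfactant, which lowers surface tension on the waxy cuticle and can disturb membranes. Plants answer surface damage, foreign compounds and microbial molecules with partly shared programmes: receptor kinases at the cell surface signal to transcription factors, ubiquitin ligases such as PUB22 and PUB23 restrain the signal, and enzymes of detoxification, hormone turnover and the cell wall follow. Small heat shock proteins, which hold unfolding proteins in solution, often rise with them.

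Of the 50 members, 17 had a single gene in the platform annotation, 2 had several genes and 31 had none. All 50 were bright enough to be tested with the other probe sets, and 38 had all 6 signals at or above the 40th percentile of their array (20.6 to 23.9 units). The dim signals lay mainly under water, where 7 members in IA and 11 in II were below that percentile. The members' log2 ratios of Tween 20 to water ran from 1.02 to 4.28 in IA, with a median of 1.85. In IB they ran from -1.17 to 0.58, with a median of 0.12, and in II from 1.0 to 2.16, with a median of 1.16. Over the 13310 bright probe sets the medians lay at -0.08, -0.03 and -0.01 for the 3 pairs. A 2-fold higher signal, which the rule fixed for the members, was met by 3.58% of the bright probe sets in IA, 1.65% in IB and 1.03% in II.

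**Figure D1:**
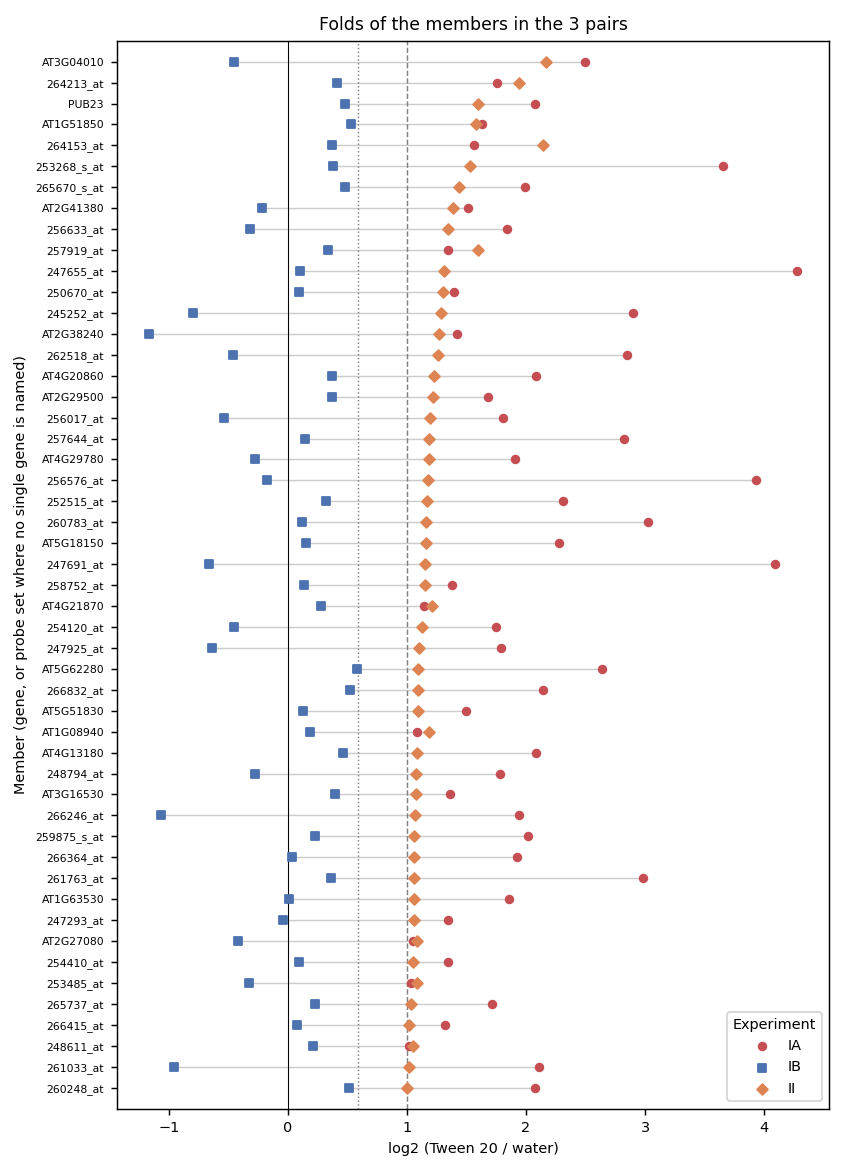
Log2 ratio of Tween 20 to water for the 50 members, 1 row each, ordered by the smaller of the folds in IA and II; circles are IA, squares IB and diamonds II, the dashed line is the 2-fold threshold at 1 and the dotted line the 1.5-fold ceiling for IB. The IB squares all lie left of the dotted line, 18 of them below 0, and the IA circle lies right of the II diamond in 42 of the 50 rows.

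Under the same threshold, the members' folds in IA and II differed in size. The fold was higher in IA than in II in 42 of the 50 members and lower in 8, with a median difference of 0.65 on the log2 scale. Over the bright probe sets too, 2-fold rises were more frequent in IA (3.58%) than in II (1.03%). The lean to IA is therefore not read as a trait of the members. In 18 members the IB fold was below 0, so that the Tween signal was the lower one of that pair, and in 32 it was above 0. Of the 13310 bright probe sets, 7241 were below 0 in IB and 6041 above. The rule caps the IB fold of the members, so nothing is read from these counts. The SD of the 1 h folds over IA and IB ran from 0.57 to 3.36 among the members (n = 2 each), and its median was 1.24, against 0.17 over the bright probe sets. The rule chose members for unequal folds in IA and IB, so nothing is read from this spread.

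Among members of stress and immune signalling, the ubiquitin ligase PUB23 was among the 12 with the highest folds, by the smaller of the folds in IA and II. PUB23 is a U-box protein that acts with PUB22 and PUB24 to dampen immune responses. It had 208.5, 52.2 and 151.1 units with Tween 20 in IA, IB and II, against 49.4, 37.4 and 50.1 units with water. The water signals lay close together and the Tween signal of IB was far below the other Tween signals. The log2 folds of PUB23 were 2.08, 0.48 and 1.59 (1 h mean 1.28 ± 1.13, SD, n = 2).

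AT1G51850 encodes a leucine-rich repeat receptor kinase. Its signals were 140.1, 103.0 and 169.8 units with Tween 20 in IA, IB and II, against 45.3, 71.2 and 56.8 units with water. The Tween and water signals did not overlap over the 6 arrays, with the lowest Tween and the highest water signal in IB. AT2G27080, of the NDR1/HIN1-like family of membrane proteins, showed another form of the pattern. It had 149.3, 143.9 and 94.7 units with Tween 20 in IA, IB and II, against 71.9, 192.4 and 44.7 units with water. Its highest signal of all 6 arrays was that of water in IB. The log2 folds were 1.63, 0.53 and 1.58 for AT1G51850 and 1.05, -0.42 and 1.08 for AT2G27080.

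**Figure D2:**
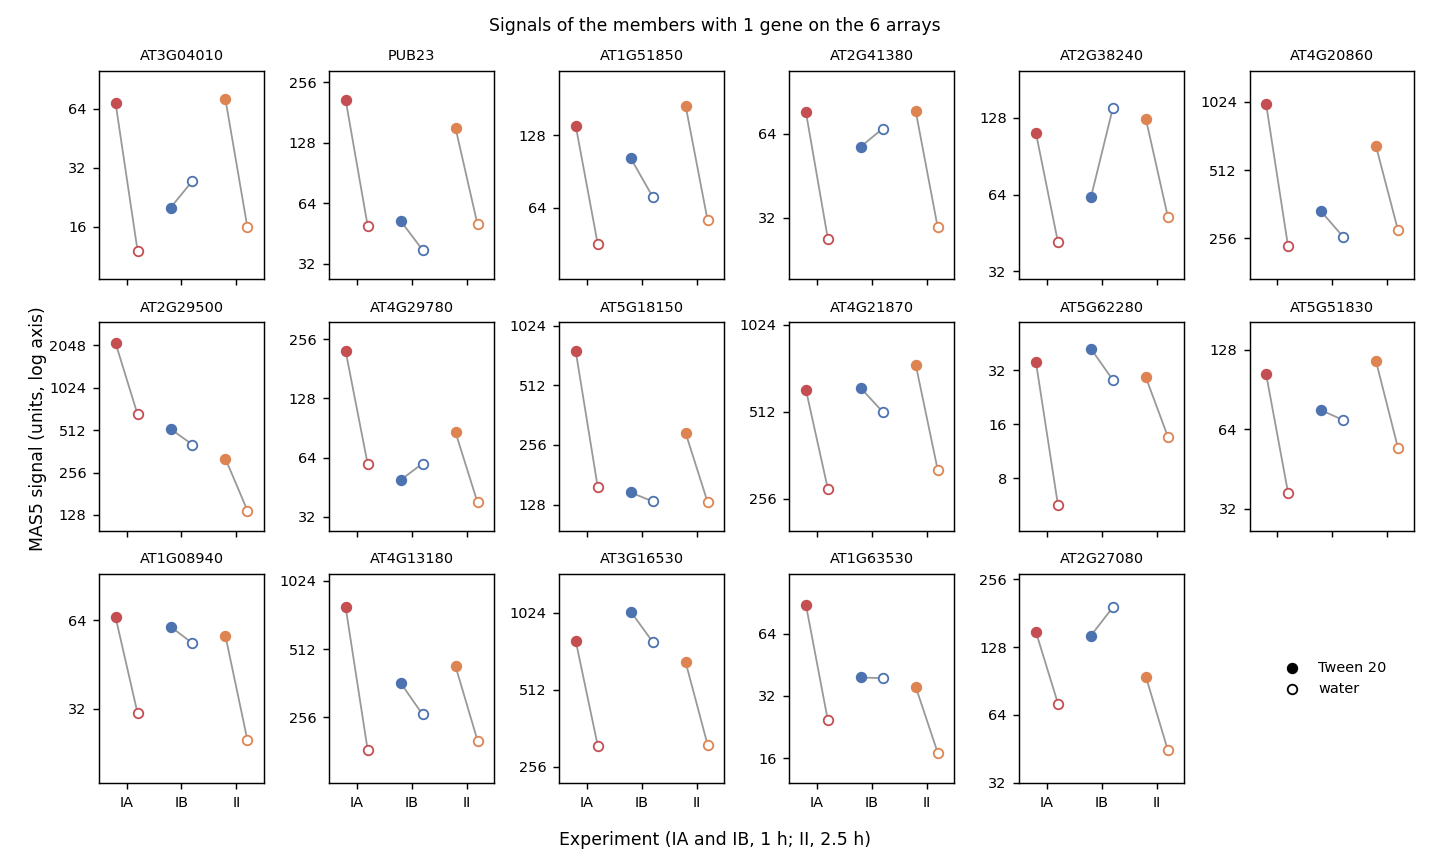
Signals of the 17 members with a single gene on the 6 arrays, on log axes that differ between panels; filled points are Tween 20, open points water, and a line joins the pair of each experiment (IA red, IB blue, II orange). The IA and II lines all fall steeply to water, while the IB pair lies low for PUB23 (52.2 and 37.4 units) and high for AT3G16530 (1036.7 and 789.0 units).

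Further members encode proteins of the cell wall and cell surface. AT3G04010, a glycosyl hydrolase of the family that holds the beta-glucanases, ranked highest of the 50 by the smaller of its folds in IA and II. It had 68.3, 20.0 and 71.3 units with Tween 20 in IA, IB and II, against 12.1, 27.4 and 15.9 units with water. The IB pair lay between the water and Tween signals of the other experiments and its order was reversed. The water signals in IA and II and the Tween signal in IB were below the 40th percentile, so the log2 folds of 2.50, -0.45 and 2.16 are uncertain.

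AT4G20860, a berberine bridge enzyme-like oxidase, was bright on all arrays. It had 1002.8, 337.1 and 654.1 units with Tween 20 in IA, IB and II, against 236.6, 260.6 and 279.0 units with water (log2 folds 2.08, 0.37 and 1.23). All Tween signals were above all water signals, and the water signals of the 3 experiments lay within a narrow range. AT3G16530, a legume-type lectin, differed from it in IB. Its signals were 795.1, 1036.7 and 656.8 units with Tween 20, against 309.5, 789.0 and 311.9 units with water (log2 folds 1.36, 0.39 and 1.07). Here both IB signals were the highest of their arm.

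The members held a pair of small heat shock proteins. AT2G29500 had 2125.5, 522.4 and 320.9 units with Tween 20 in IA, IB and II, against 662.4, 403.8 and 137.5 units with water (log2 folds 1.68, 0.37 and 1.22). Its signals were highest in IA and lowest in II in either arm, so that the Tween signal in II was below the water signals of IA and IB. AT4G21870 had 610.9, 617.9 and 744.0 units with Tween 20, against 277.1, 511.0 and 322.3 units with water (log2 folds 1.14, 0.27 and 1.21). Its Tween signals lay close together and only the water signal of IB stood apart from the other water signals.

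Enzymes of metabolism made up the next group. AT2G38240, a 2-oxoglutarate-dependent oxygenase that hydroxylates jasmonic acid, had the lowest IB fold of all members. It had 111.6, 62.4 and 126.8 units with Tween 20 in IA, IB and II, against 41.7, 140.1 and 52.5 units with water (log2 folds 1.42, -1.17 and 1.27). The order of the IB pair was the reverse of the others, and its water signal exceeded every Tween signal. AT2G41380, of the methyltransferase superfamily that uses S-adenosylmethionine, had 76.7, 57.5 and 77.0 units with Tween 20, against 26.9, 66.8 and 29.5 units with water (log2 folds 1.51, -0.22 and 1.38). In IA and II its signals nearly coincided in both arms.

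AT4G13180, a short-chain dehydrogenase, had 781.1, 363.5 and 430.1 units with Tween 20 in IA, IB and II, against 184.3, 263.7 and 202.4 units with water (log2 folds 2.08, 0.46 and 1.09). AT5G51830, a pfkB-type sugar kinase, had 103.9, 75.6 and 116.2 units with Tween 20, against 36.8, 69.4 and 54.5 units with water (log2 folds 1.5, 0.12 and 1.09). In both of these genes all Tween signals were above all water signals, and the IB pair was the closest together. AT1G08940, of the phosphoglycerate mutase family, had 65.7, 61.0 and 56.7 units with Tween 20, against 30.9, 53.5 and 25.0 units with water (log2 folds 1.09, 0.19 and 1.18). Its Tween signals again did not overlap with its water signals, and the IB water signal was the one closest to them. The rule asks for a 2-fold gap in IA and II. Such a lack of overlap, here and in the members above, thus follows in part from the choice.

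The remaining members with a single gene are of little-known function. AT5G18150, annotated as related to methyltransferases, had 760.0, 147.4 and 294.2 units with Tween 20 in IA, IB and II, against 156.7, 132.8 and 131.6 units with water (log2 folds 2.28, 0.15 and 1.16). AT4G29780, a nuclease-like protein, had 222.6, 49.3 and 86.0 units with Tween 20, against 59.5, 59.7 and 37.9 units with water (log2 folds 1.90, -0.28 and 1.18). For both, the Tween signal of IB was near the water signals. AT1G63530 had 88.6, 39.3 and 35.4 units with Tween 20, against 24.4, 39.0 and 17 units with water (log2 folds 1.86, 0.01 and 1.06). AT5G62280 had 35.5, 42.3 and 29.3 units with Tween 20, against 5.7, 28.3 and 13.7 units with water (log2 folds 2.64, 0.58 and 1.1). The water signals of AT5G62280 in IA and II and that of AT1G63530 in II were dim, which makes these folds uncertain.

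Among the 12 members highest in rank, 8 had no single gene and are given by their probe set. The fold of 247655_at in IA was the highest of all members, with 1070.3, 59.3 and 165.7 units with Tween 20 in IA, IB and II, against 55.2, 55.2 and 66.6 units with water (log2 folds 4.28, 0.10 and 1.31). Its water signals were almost equal. The 253268_s_at probe set, which matches several genes, had 1348.7, 252.2 and 520.9 units with Tween 20, against 107.1, 194.2 and 180.4 units with water (log2 folds 3.65, 0.38 and 1.53). The 265670_s_at probe set, also of several genes, had 307.6, 63.6 and 129.6 units with Tween 20, against 77.3, 45.6 and 47.8 units with water (log2 folds 1.99, 0.48 and 1.44). All 3 had a Tween signal in IA far above that in II.

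The fold was instead higher in II for 264213_at, with 319.0, 127.9 and 211.0 units with Tween 20 in IA, IB and II, against 94.2, 96.3 and 55 units with water (log2 folds 1.76, 0.41 and 1.94). It was so for 264153_at, with 228.0, 123.8 and 164.6 units with Tween 20, against 77.1, 95.6 and 37.2 units with water (log2 folds 1.56, 0.37 and 2.15). In both, the water signal of II was the lowest of its arm. The same held for 257919_at, with 53.6, 37.3 and 52.4 units with Tween 20, against 21.1, 29.5 and 17.3 units with water (log2 folds 1.34, 0.34 and 1.6), of which 2 signals were dim.

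For 256633_at the signals were 106.5, 21.6 and 39.2 units with Tween 20 in IA, IB and II, against 29.8, 26.9 and 15.4 units with water (log2 folds 1.84, -0.32 and 1.35). The order of its IB pair was reversed. Signals of 250670_at were highest in IB in both arms, with 168.7, 376.7 and 218.7 units with Tween 20, against 64.1, 353.1 and 88.6 units with water (log2 folds 1.4, 0.09 and 1.3). In IA, 5 of the 50 members had a log2 fold above 3, and all 5 lacked a single gene.

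The low fold of IB could lie in a high water signal, in a low Tween signal, or in both. The water signal of IB was above both other water signals in 34 of the 50 members (68.0%), against 33.0% of the bright probe sets. The Tween signal of IB was below both other Tween signals in 33 members (66.0%), against 40.7% of the bright probe sets. Both held in 20 of the 50 members, against 3.49% of the bright probe sets. The water part alone held in 14 members, against 29.5% of the bright probe sets, and the Tween part alone in 13, against 37.2%. Neither held in 3 members, against 29.8% of the bright probe sets. Either part alone was thus no more frequent in the members than in the bright probe sets. The rule fixes that the Tween shift of IB lies below its water shift, so these shares follow in part from the choice of members and carry no test.

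Relative to the mean of IA and II on the log2 scale, the IB Tween signal had a median shift of -0.73 and the IB water signal one of 0.70. By absolute size the Tween shift was the larger in 26 members and the water shift in 24, which was not tested. Single members differed in this. PUB23 had a Tween shift of -1.77 and a water shift of -0.41, and AT2G27080 had 0.28 and 1.76. Among the 17 members with a single gene, both parts held for 7: AT3G04010, AT1G51850, AT2G41380, AT2G38240, AT4G29780, AT5G51830 and AT4G13180. The water part alone held for 6, which were AT4G21870, AT5G62280, AT1G08940, AT3G16530, AT1G63530 and AT2G27080. The Tween part alone held for 3, PUB23, AT4G20860 and AT5G18150, and neither held for AT2G29500. In 6 of the 50 members, among them AT2G38240 and AT2G27080, water in IB was at or above the Tween signals of both IA and II. In 30 members the Tween signals of IA and II lay above all 3 water signals. Neither count was set against the bright probe sets, so nothing is read from them.

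**Figure D3:**
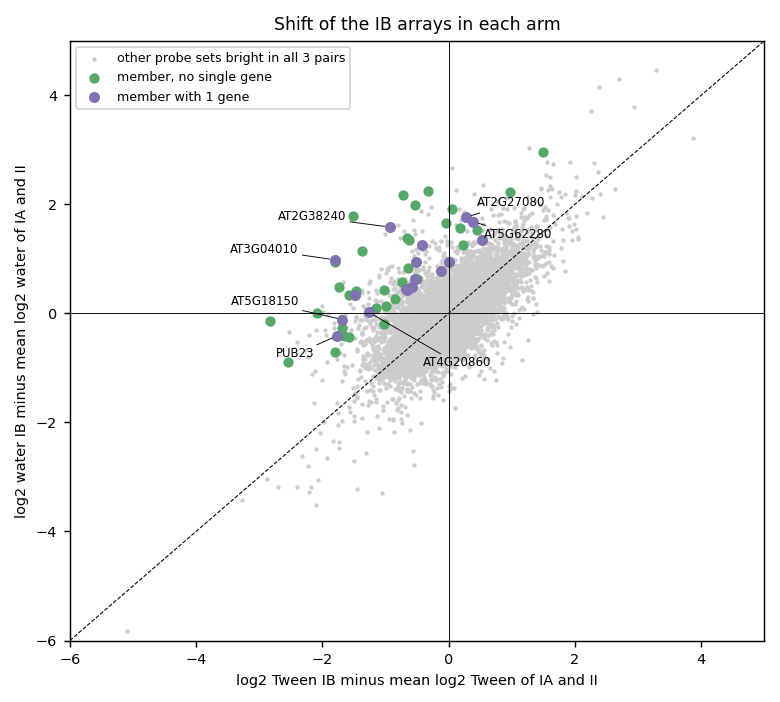
Shift of the IB arrays from the mean of IA and II, Tween 20 on the horizontal and water on the vertical axis (log2 units), for the 50 members and the other probe sets bright in all 3 pairs; on the dashed line both shifts are equal. Every member lies above the line, as the rule requires, and those with a single gene include PUB23 (Tween shift -1.77, water shift -0.41) and AT2G27080 (Tween shift 0.28, water shift 1.76).

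Beyond the members, the separation of the IB arrays depended on the measure. Over the bright probe sets the log2 Tween arrays of IA and II correlated at 0.942, against 0.934 for IA with IB and 0.929 for IB with II. The water arrays of IA and II correlated at 0.963, against 0.927 for IA with IB and 0.929 for IB with II. Within the pairs, Tween 20 and water correlated at 0.9484 in IA, 0.9725 in IB and 0.9774 in II. By this measure the IA pair was the least alike, and water in IA correlated better with Tween 20 in II (0.9543). Probe sets are the units here, and they share arrays and scaling. For the actin control, the 3' probe set exceeded the 5' one by 4.26 (Tween 20) and 4.13 (water) on the log2 scale in IA, by 2.76 and 2.94 in IB and by 4.02 and 4.0 in II. For ubiquitin the excess was 1.12 and 0.92 in IA, 0.91 and 1.0 in IB and 1.81 and 1.71 in II, so that the II pair was the one apart. For GAPDH it was 0.38 and 0.52 in IA, 0.20 and -0.06 in IB and 0.38 and 0.54 in II. The part of RNA quality or of array handling in the pattern was not tested. Of the leaf markers only RCA, the Rubisco activase, had a named probe set, with 3601.3 to 4176.4 units over the 6 arrays. Of the root markers only the beta-glucosidase PYK10 had one, with 745.2 to 1126.8 units. Its log2 folds were -0.05, -0.60 and 0.14 in IA, IB and II. Both RCA and PYK10 lay far above the array medians of 36.55 to 40.5 units, and the share of root tissue was not tested. Flower and seed markers had no named probe set.

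The other ways to combine the 3 pairs were counted alike. Of 104 bright probe sets at least 2-fold higher in IA and II, 29 were also 2-fold higher in IB (27.9%) and 52 were below the 1.5-fold ceiling there. Of 32 that were 2-fold higher in IB and II, 29 were so in IA as well (90.6%) and 1 was below the ceiling. Of 98 that were 2-fold higher in the repetitions IA and IB, 29 were so in II (29.6%) and 27 were below the ceiling. These sets share arrays and their counts follow the number of 2-fold probe sets in each pair, so they are given with no test. In the lower direction the counts were small. Of 5 probe sets 2-fold lower in IA and II, 2 were so in IB and 1 missed the corresponding 1.5-fold limit there. Of 3 that were 2-fold lower in IB and II, 2 were so in IA and 1 missed the limit. Of 17 that were 2-fold lower in IA and IB, 2 were so in II and 12 missed the limit (70.6%), so that in this direction II was the pair most often missing.

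**Figure D4:**
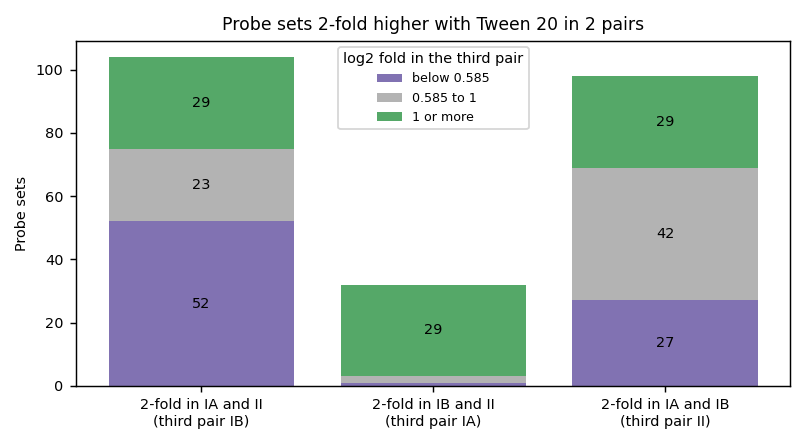
Number of bright probe sets at least 2-fold higher with Tween 20 in 2 pairs, divided by their fold in the other pair. The left bar holds the 52 probe sets that met the rule, the middle bar has 1 below the ceiling and the right bar has 27.

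The thresholds cut through a continuous range, and the nearest probe sets with a single gene are given here. Unnamed members lay nearer on IA, such as 248611_at (1.02), and on II, such as 260248_at (1.004). On IB, 266832_at (0.52) lay between AT1G51850 and PUB23. Nearest inside the limit on IB were AT5G62280 (0.58), AT1G51850 (0.53) and PUB23 (0.48), and nearest outside were AT5G25930 (0.60), ATPMEPCRB (0.63), a pectin methylesterase, and AT1G51820 (0.64), another receptor kinase. Nearest inside the limit on II were AT1G63530 (1.06), AT3G16530 (1.07) and AT2G27080 (1.08), and nearest outside were AT4G27652 (0.997), the methionine sulfoxide reductase MSRB9 (0.98) and AT1G51790 (0.98). On IA the nearest inside were AT2G27080 (1.05), AT1G08940 (1.09) and AT4G21870 (1.14). The nearest outside were AT2G42360 (0.75), the glucosyltransferase UGT85A7 (0.75) and AT3G46280 (0.70), further off than at the other limits.

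Relatives of the members showed partly the same folds. In the order IA, IB, II, the log2 folds of PUB22 were 1.28, 1.45 and 1.56, and those of PUB24 1.34, 0.24 and 0.19, beside the 2.08, 0.48 and 1.59 of PUB23. The IB fold was thus near the others only for PUB22, and the II fold was low only for PUB24. Of the receptor kinases near AT1G51850, AT1G51820 had log2 folds of 1.73, 0.64 and 1.17 and AT1G51790 of 1.13, 0.41 and 0.98. AT1G51860, the next gene, had 0.40, 0.52 and 0.64. Close paralogs may share probe signal, which cannot be separated here.

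The genomic neighbours of the 17 members with a single gene were compared as well, a choice made after the values were seen. The 17 lay on all 5 chromosomes, with 3, 5, 2, 4 and 3 on chromosomes 1 to 5. Within 3 protein-coding genes on either side, 42 neighbours had a probe set of their own and 25 were bright in all 3 pairs. Of these 25, 2 were 2-fold higher in IA and 0 in IB or II. These 2 were MSRB9, 3 genes from AT4G21870, with log2 folds of 1.52, -0.05 and 0.98, and the aldehyde reductase AT3G04000, next to AT3G04010, with 1.68, -0.66 and 0.23. AT2G38250, next to AT2G38240, was at 36.8, 10.7 and 23.7 units with Tween 20, against 2.8, 9.4 and 8.2 units with water. It was too dim in IB and in II to be counted.

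Stress genes were examined in 9 lists of 207 genes. A probe set of a single gene was found for 40 of them, 36 were tested, and PUB23 was the 1 member among these. IA gave the 36 a median log2 fold of 1.3, IB one of 0.02 and II one of 0.60, while all 14345 tested probe sets had medians of -0.08, -0.03 and -0.02. In IA 23 of the 36 were 2-fold higher (63.9%, against 3.77% of all tested), in IB 3 (8.33%, against 1.70%) and in II 7 (19.4%, against 1.08%). PUB23 and, though left out by name, UGT73B4 and XTH18 met the rule and are among the 36. Their folds thus enter these medians and shares by choice. The lists were chosen with earlier results of these data known, so these shares describe the 36 genes only.

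By list, and in the order IA, IB, II, the 8 tested detoxification genes had median log2 folds of 1.75, 0.00 and 0.39, and 6, 0 and 1 of them were 2-fold higher. UGT73B4, a glucosyltransferase that met the rule but was left out, was at 2.77, 0.27 and 1.27, with 3 dim signals. Its relative UGT73B5 was at 3.36, 0.62 and 0.80, and AER, an alkenal reductase that removes reactive carbonyls, at 1.9, 0.08 and 0.83. The 4 genes of mitochondrial stress had medians of 1.1, -0.05 and 0.42. Of these the NADH dehydrogenase NDB2 was at 1.03, 0.31 and 0.45, the small heat shock protein AT5G51440 at 1.17, 0.12 and 0.80, and AT2G21640 at 1.25, -0.22 and 0.39.

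The 4 heat shock and unfolded protein genes had medians of 2.27, 0.23 and 0.64. The small heat shock protein AT1G53540 was at 3.06, 1.05 and 1.16, and so was 2-fold higher in all 3 pairs. BZIP60, a transcription factor of the unfolded protein response, was at 1.53, 0.26 and 0.82, and AT5G48570, a peptidyl-prolyl isomerase, at 0.34, 0.21 and 0.45. The 10 genes of rapid stress and immune signalling had medians of 1.73, 0.54 and 0.87. WRKY22, a transcription factor of immune signalling, was at 1.62, 0.60 and 0.91, and CML42, a calmodulin-like calcium sensor, at 1.83, 1.48 and 0.63. The IB fold of CML42 was thus above its II fold.

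In the salicylate list the glutaredoxin GRX480 was at 1.84, 0.28 and 0.91, and SAG101, a partner of EDS1, at 0.80, 0.74 and 0.72, with nearly equal folds in the 3 pairs. In the jasmonate list OPCL1, a ligase of jasmonate synthesis, was at 1.12, -0.64 and 0.58, and the defensin PDF1.2 at -0.96, -0.24 and -0.83. The dehydration genes COR15A and COR47 were at -0.01, -0.43 and -0.19 and at -0.30, -0.59 and -0.10. Of the xyloglucan enzymes of the cell wall, XTH18, which met the rule but was left out, was at 1.33, -0.05 and 2.83. XTH33 was at -0.26, -1.32 and 1.08 and XTH19 at 0.83, -0.51 and 0.73, so all 3 were below 0 in IB.

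**Figure D5:**
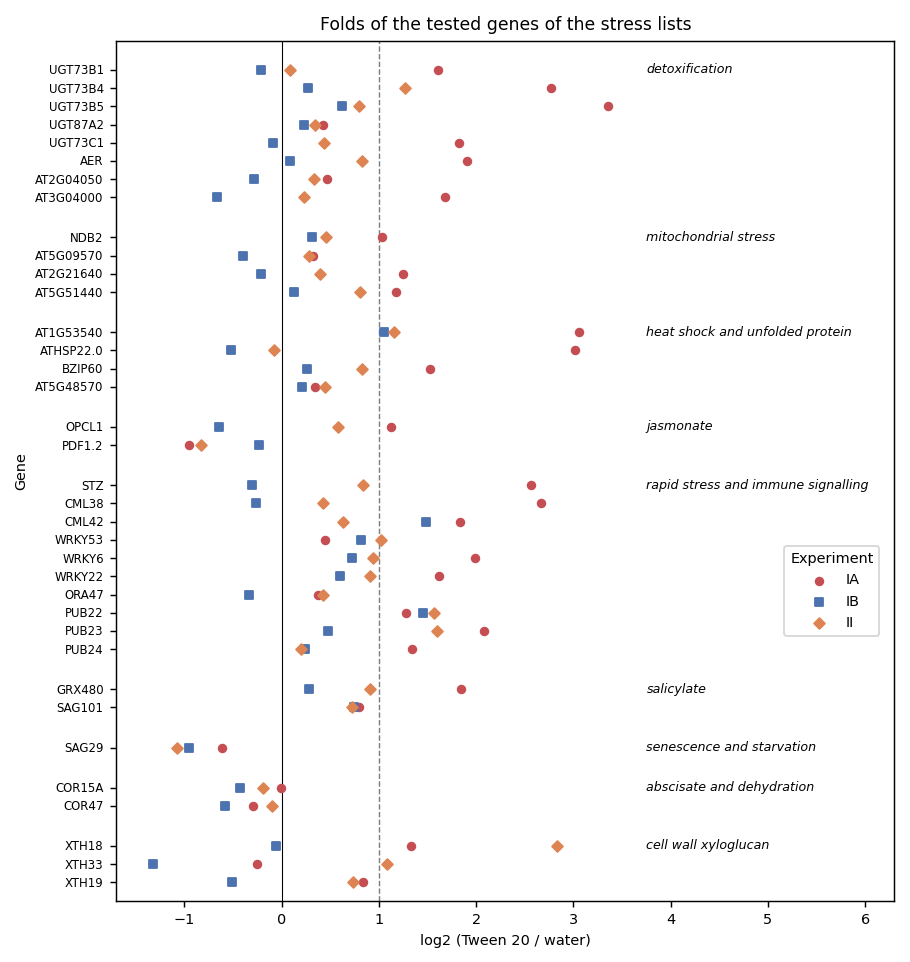
Log2 ratio of Tween 20 to water for the 36 tested genes of the stress lists, grouped by list; circles are IA, squares IB and diamonds II, and the dashed line is at 1. The circles lie right of the line for most detoxification genes (median 1.75 in IA), while the squares gather near 0 (median 0.00 in IB).

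In limma's moderated test over the 3 experiments, with the experiment as a block, 1.02% of all tested probe sets were higher and 0.105% lower at an adjusted p under 0.05. The fit pools the 1 h and 2.5 h pairs, so its estimates belong to no single time. Of the 36 list genes 2 rose (5.56%) and 1 fell (2.78%). PUB22 rose by 1.43 ± 0.12 (SE, adjusted p = 0.0139, higher in 3 of 3 pairs) and CML42 by 1.31 ± 0.22 (adjusted p = 0.0493, higher in 3 of 3 pairs). SAG29, a sugar transporter of senescing leaves, fell by 0.88 ± 0.14 (adjusted p = 0.0439, lower in 3 of 3 pairs). Over 10 other settings limma's adjusted p ran from 0.00171 to 0.382 for PUB22, from 0.0173 to 0.716 for CML42 and from 0.0303 to 0.445 for SAG29. The calls of CML42 and SAG29 were lost in 8 of the 10 settings and that of PUB22 in 5, among them those without IA (adjusted p = 0.0763, 0.154 and 0.0956 for PUB22, CML42 and SAG29) and without II (0.0673, 0.0673 and 0.195).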

How the data were processed

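Expression was measured on 6 Affymetrix arrays. The authors deposited a linear signal intensity for each probe set, with MAS5 named as the tool per the submitters' processing notes (version and scaling: not given in the sources used here). Array medians were 36.55 to 40.5 units. Arrays give no read depth, and their number limits the precision.

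Signals were set to at least 0.1, log2 values were taken and Tween 20 was compared with water within each experiment. Of 22810 probe sets 64 controls were left out. Genes came from the platform annotation (13513 probe sets with 1 gene, 503 with several, 8730 with none), of which 13436 matched the RefSeq table of assembly TAIR10.1. Where a list gene had several probe sets, the one with the highest mean was to be used. No sequences or coordinates are given.

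Across all probe sets that reached the 40th percentile on at least 2 arrays, limma 3.58.1 under R 4.3.3 was fitted on the 6 arrays with the experiment as a block and an intensity trend, with Benjamini-Hochberg adjustment at 0.05. The experiment pairs the arrays per the titles and the design text. The procedure was also run on simulated data. The simulated noise was independent and of equal spread over the 6 arrays, so that run does not cover pairs that differ in spread. Replicates are biological repetitions per the design text.

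Members and lists were chosen with earlier results of these data known. Members were ranked by the smaller fold of IA and II. The 12 highest and every member with 1 gene are given with their signals, and of each list the 3 genes with the largest limma statistic. Further genes of the lists named beside a member (PUB24, AT3G04000) were chosen after their values were seen. Alternatives covered normalization, pseudocount, dim-signal filter, IB ceiling, block and leaving out each pair.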

Additional observations from a re-analysis of the deposited data

How the results depend on the processing

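The 50 members became 27 with a pseudocount of 16 (24 shared), 30 with the filter at the 60th percentile (all shared), 267 with no filter and 18 with an IB ceiling of 0. Without IA the remaining conditions were met by 76 probe sets and without IB by 102. The count was 53 with quantile normalization, 49 with median centring and 73 with an IB ceiling of 1, with 50, 48 and 50 shared. With the pseudocount the median log2 fold of the members was 1.57 in IA and 0.96 in II, and 23 of 51 folds of the members with 1 gene moved by more than 0.17, the median SD between the 1 h folds, while 0 of 51 did so under quantile normalization or median centring. The members with a high IB water signal numbered 34 with quantile normalization and 35 with median centring, those with a low IB Tween signal 34 and 32. Of the 38 members with all 6 signals at or above the 40th percentile, 24 had the former and 26 the latter. These counts were not run with the pseudocount, the other filters or the other IB ceilings.

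limma's calls over all tested probe sets (146 higher, 15 lower) were 87 and 5 with median centring and 1 and 1 with no variance trend. They were 0 and 0 with no filter (1315 and 1252 at an unadjusted p under 0.05) and with no replicate block (473 and 141). Leaving out a pair gave 0 to 574 higher and 0 to 156 lower: 0 and 0 without IA (780 and 435 unadjusted), 574 and 156 without IB, and 0 and 0 without II (931 and 760 unadjusted). Among the list genes, 2 higher and 1 lower became 1 and 0 with quantile normalization and with median centring, 1 and 1 with a pseudocount of 16, and 2 and 0 with the filter at the 60th percentile. With limma they were 0 and 0 with no filter (18 and 3 at an unadjusted p under 0.05), with no variance trend (18 and 2) and with no replicate block (11 and 1). Leaving out a pair gave 0 to 18 higher and 0 to 2 lower: 0 and 0 without IA (15 and 2 unadjusted), 18 and 2 without IB, and 0 and 0 without II (16 and 4 unadjusted). The cause of these changes was not tested. The planned search for promoter motifs was not run, since promoter sequences were not used here. Dim water signals limit the folds of 7 members in IA and 11 in II.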
